A study of Homo sapiens with 36 samples.

Results

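The genes described here encode proteins that apocrine and secretory breast epithelium releases, and were taken as a named list of 9 genes: PIP, SCGB1D2, SCGB2A1, SCGB2A2, MUCL1, S100P, BPIFB1, AZGP1 and CLEC3A. They were measured by 10 of the 48803 probes on the array, and all 9 genes were among the 9902 genes tested. Their levels were compared over 36 arrays of ZR-75-1 cells, an established human breast cancer cell line with the luminal type of expression, in 9 groups of 4 arrays. One group received vehicle (ethanol, 2 ppm). Single hormones were estradiol (E2), the progestins progesterone (P4) and medroxyprogesterone acetate (MPA), of which the latter is synthetic, and the androgen dihydrotestosterone (DHT). The combined groups were E2+P4, E2+MPA, E2+DHT and E2pre+P4. Each hormone was given at 10 nM for 16 h to cells kept in medium with charcoal stripped serum. In the E2pre+P4 group E2 was given for 72 h, and the labels place P4 in the last 16 h of it, whereas the study's methods place P4 after the 72 h. A group with 72 h of E2 and no P4 is absent from the design, and the longer E2 exposure and the addition of P4 to it cannot be told apart. Whether the 4 replicates of a group were separate cultures is not in the labels, so p-values measure only the spread between these samples.

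Apocrine epithelium is the secretory lining found in axillary sweat glands and in metaplastic breast ducts, and many luminal breast tumours keep part of its secretory programme. PIP (prolactin-induced protein, also called GCDFP-15) and AZGP1 (zinc-alpha-2-glycoprotein) are major proteins of breast cyst fluid, and both are long known as androgen-responsive genes in breast cancer cells. The secretoglobins SCGB2A2 (mammaglobin-A), SCGB2A1 (mammaglobin-B) and SCGB1D2 (lipophilin B) are small secreted proteins that pair with one another, mammaglobin-A being bound to lipophilin B in breast tissue. MUCL1 (small breast epithelial mucin) is a mucin-like breast product, S100P is a calcium-binding protein of the S100 family that acts inside and outside the cell, BPIFB1 is a secreted protein of the bactericidal/permeability-increasing fold family best known from airway mucosa, and CLEC3A is a secreted C-type lectin first described in cartilage.

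On the human genome (RefSeq annotation, GRCh38.p14) PIP lies at chr7:143132077-143139739 and AZGP1 at chr7:99966730-99976031, with S100P at chr4:6693878-6697170, MUCL1 at chr12:54830681-54858387, CLEC3A at chr16:78022548-78032101 and BPIFB1 at chr20:33283214-33309871. The 3 secretoglobins are neighbours on chromosome 11, with SCGB2A1 at 62208673-62213943, SCGB1D2 at 62242239-62244812 and SCGB2A2 at 62270158-62273160, a span of 64488 bases. In the RefSeq table no other gene lies within that span. Where each probe sits within its transcript was not analysed here.

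The stretches of 250 bases before the start sites (RefSeq, GRCh38.p14, matched by symbol for 8 of the 9 genes) are shown for PIP and BPIFB1, which of the 9 genes fell furthest in the E2pre+P4 group apart from the dim CLEC3A, and for the mammaglobin pair SCGB2A1 and SCGB2A2, which are close relatives. Capitals mark the receptor half-site AGAACA in PIP and, in the mammaglobin genes, runs of at least 12 bases that both windows hold. No capitals are used in BPIFB1.
PIP (chr7:143131827-143132076, plus strand): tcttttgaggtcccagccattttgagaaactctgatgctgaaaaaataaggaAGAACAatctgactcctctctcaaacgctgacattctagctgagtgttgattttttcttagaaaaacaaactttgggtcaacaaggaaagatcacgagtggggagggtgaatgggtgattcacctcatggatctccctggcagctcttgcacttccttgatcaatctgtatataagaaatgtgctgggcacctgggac
BPIFB1 (chr20:33282964-33283213, plus strand): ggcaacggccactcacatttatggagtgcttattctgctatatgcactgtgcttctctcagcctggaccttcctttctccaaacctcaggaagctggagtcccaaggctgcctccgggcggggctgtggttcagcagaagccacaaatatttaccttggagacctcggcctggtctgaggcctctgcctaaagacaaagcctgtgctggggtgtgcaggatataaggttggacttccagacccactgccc
SCGB2A1 (chr11:62208423-62208672, plus strand): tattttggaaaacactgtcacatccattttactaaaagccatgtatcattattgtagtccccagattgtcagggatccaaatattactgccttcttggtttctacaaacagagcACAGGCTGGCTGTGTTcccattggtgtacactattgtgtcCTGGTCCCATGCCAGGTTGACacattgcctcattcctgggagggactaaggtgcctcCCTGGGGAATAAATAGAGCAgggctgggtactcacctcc
SCGB2A2 (chr11:62269908-62270157, plus strand): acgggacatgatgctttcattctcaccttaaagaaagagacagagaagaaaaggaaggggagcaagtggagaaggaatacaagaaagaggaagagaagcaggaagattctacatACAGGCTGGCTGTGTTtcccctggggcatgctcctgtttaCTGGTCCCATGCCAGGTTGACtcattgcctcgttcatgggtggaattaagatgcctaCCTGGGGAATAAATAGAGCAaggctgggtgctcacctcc
The capitals covered 57 bases in each of the mammaglobin windows, and the longest shared run was 21 bases. Over the last 120 bases before the start site the mammaglobin pair aligned with 82.5% identity, whereas the next most alike pair among the 8 genes, PIP and SCGB1D2, reached 55.2%.

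These windows were searched on both strands for 5 motifs. AGAACA (reverse TGTTCT), the half-site shared by the progesterone, androgen and glucocorticoid receptors, was found in 12.39% of 35116 promoters and in 1 of the 8 genes, PIP, 198 bases before the start. A relaxed palindromic form of the full element for the same receptors was found in 0.3275% of promoters and in 0 of the 8, and the estrogen receptor half-site AGGTCA (reverse TGACCT) in 12.08% and in 0 of the 8. The forkhead core TGTTTAC was in 2.979% of promoters and in SCGB2A2, 102 bases before the start, and TATAAA was in 10.72% and in S100P, 28 bases before the start. A match is a description of the letters and shows no binding.

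Across arrays, between 12191 and 14806 probes (24.98% to 30.3% of 48803) were detected at a detection p under 0.01. All 9 markers of luminal epithelium were detected on all 36 arrays, against 1 of 7 fibroblast markers, 1 of the 5 measured markers of basal and myoepithelium and 0 of 6 leukocyte markers. Among the latter lists 6 fibroblast, 3 basal and 4 leukocyte markers, PTPRC included, were detected on 0 arrays, while OXTR (basal list) was detected on 28 arrays and CD68 (leukocyte list) on 35. CD68 lay above vehicle in all 8 treated groups, by 0.49 (DHT) to 1.18 (P4) on the log2 scale, with 0 calls (limma, adjusted p from 0.0571 to 0.588), and its part in the results was not tested. All members but CLEC3A were detected on all 36 arrays. For CLEC3A the probe tested was detected on 14 arrays, and its second probe on 0, so that the second probe was not used. Levels are given as normalised log2 intensity, and since probes differ in brightness, each level is compared only with levels of the same gene. SCGB2A2 lay near the top of the scale, with a signal between 18.4% and 98.1% of the brightest probe on an array (median 76.98%).

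A pair of arrays went against its labels and bears on every statement about the E2 and E2pre+P4 groups. SERPINA3, an acute phase protease inhibitor, stood at 12.42 on the array labelled E2 replicate 2 and between 9.30 and 9.52 on the other E2 arrays. The E2pre+P4 arrays read 12.47 to 12.88 for SERPINA3, except that labelled replicate 2, which read 9.42. For FKBP5, which binds steroid receptor complexes as a co-chaperone, the exchange was the same, with 11.51 on the array labelled E2 replicate 2 and 9.35 on the array labelled E2pre+P4 replicate 2. PDZK1, a scaffold protein encoded by a known estrogen target, stood at 10.23 on the first and at 11.15 on the second, against 11.30 to 11.43 and 9.77 to 10.40 on the other arrays of their groups. The array labelled E2 replicate 2 thus carried levels near those of the E2pre+P4 group and the other array levels near those of the E2 group. Calls and counts are therefore given with all 36 arrays and without both arrays, and in neither case were they moved to another group.

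**Figure D1:**
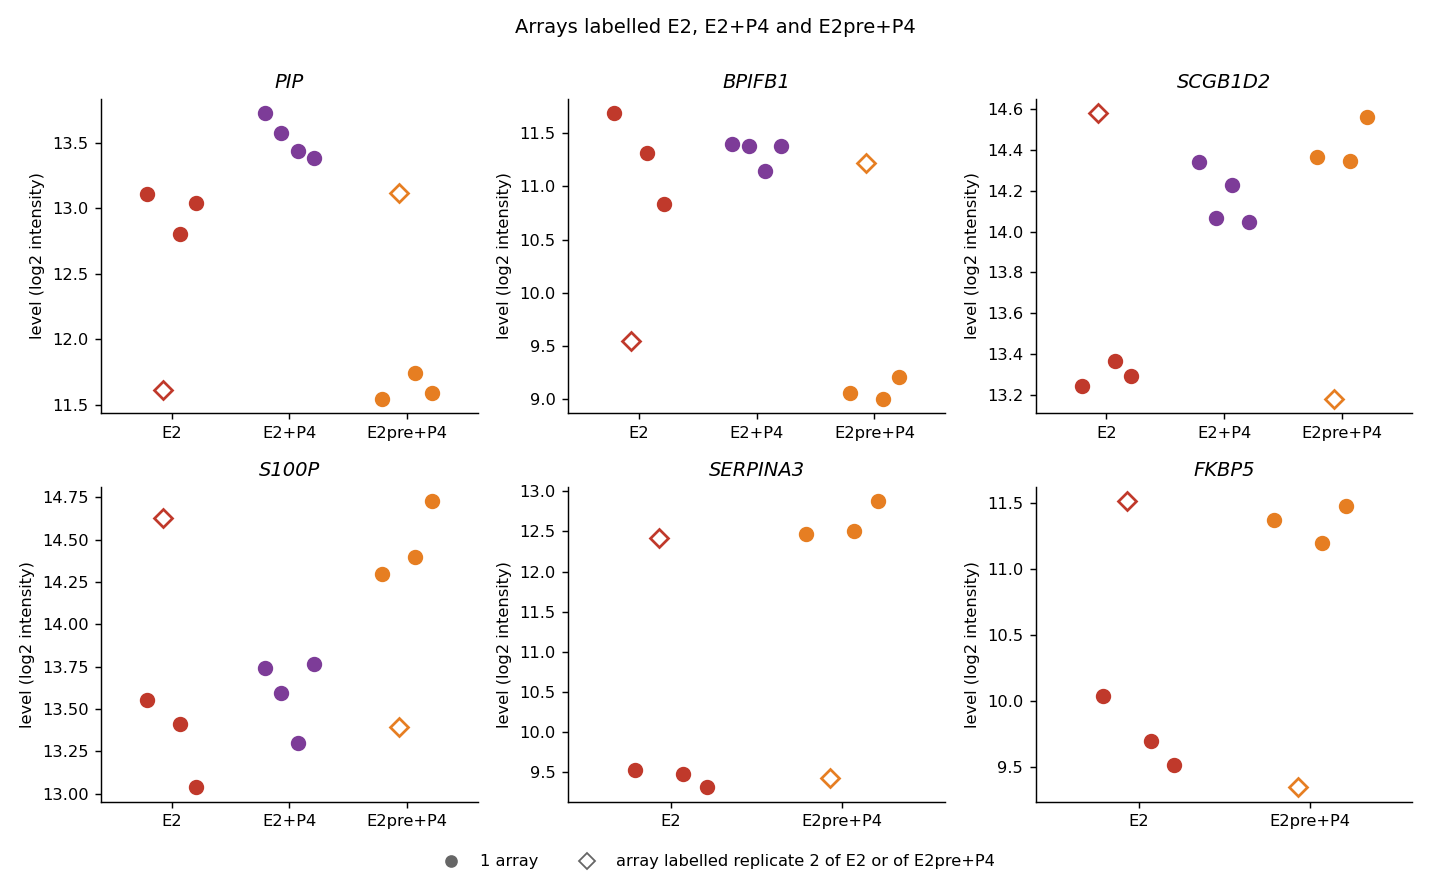
Levels (log2 intensity, vertical axes) of PIP, BPIFB1, SCGB1D2, S100P, SERPINA3 and FKBP5 on each array labelled E2, E2+P4 (members only) or E2pre+P4, with the pair of arrays labelled replicate 2 of E2 and of E2pre+P4 as open diamonds. In all 6 panels the open diamond of either group lies near the filled points of the other group, as for BPIFB1 at 9.54 and 11.22.

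Crossed levels were also seen in several members. Whether the arrays of this pair were exchanged was not tested. BPIFB1 stood at 9.54 on the array labelled E2 replicate 2, against 10.83 to 11.69 on the other E2 arrays. For the array labelled E2pre+P4 replicate 2 the level was 11.22, against 9.002 to 9.21 for the rest of that group. PIP, SCGB1D2, S100P and the dim CLEC3A were placed in the same crossed way on this pair of arrays. For AZGP1 the array labelled E2 replicate 2, at 12.33, lay among the other E2pre+P4 arrays (12.21 to 12.46). The array labelled E2pre+P4 replicate 2, at 12.12, lay between these and the other E2 arrays (11.47 to 12.06). SCGB2A1 was not crossed. Its other E2 arrays read 10.52 to 10.83 and its other E2pre+P4 arrays 10.92 to 11.08. The pair read 11.02 (labelled E2) and 10.96 (labelled E2pre+P4) for SCGB2A1, both with the other E2pre+P4 arrays. For SCGB2A2 and MUCL1 the other arrays of the 2 groups overlapped. The first vehicle array also stood apart for several members: SCGB2A2 was at 13.28 there and at 14.40 to 14.81 on the other vehicle arrays, S100P at 12.57 against 13.27 to 13.47, and CLEC3A at 9.44 against 7.96 to 8.20. This array had the lowest upper quartile of signal of the 36, 186.8 against a median of 306.2, and values without it are given below where a call or a value turned on it.

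**Figure D2:**
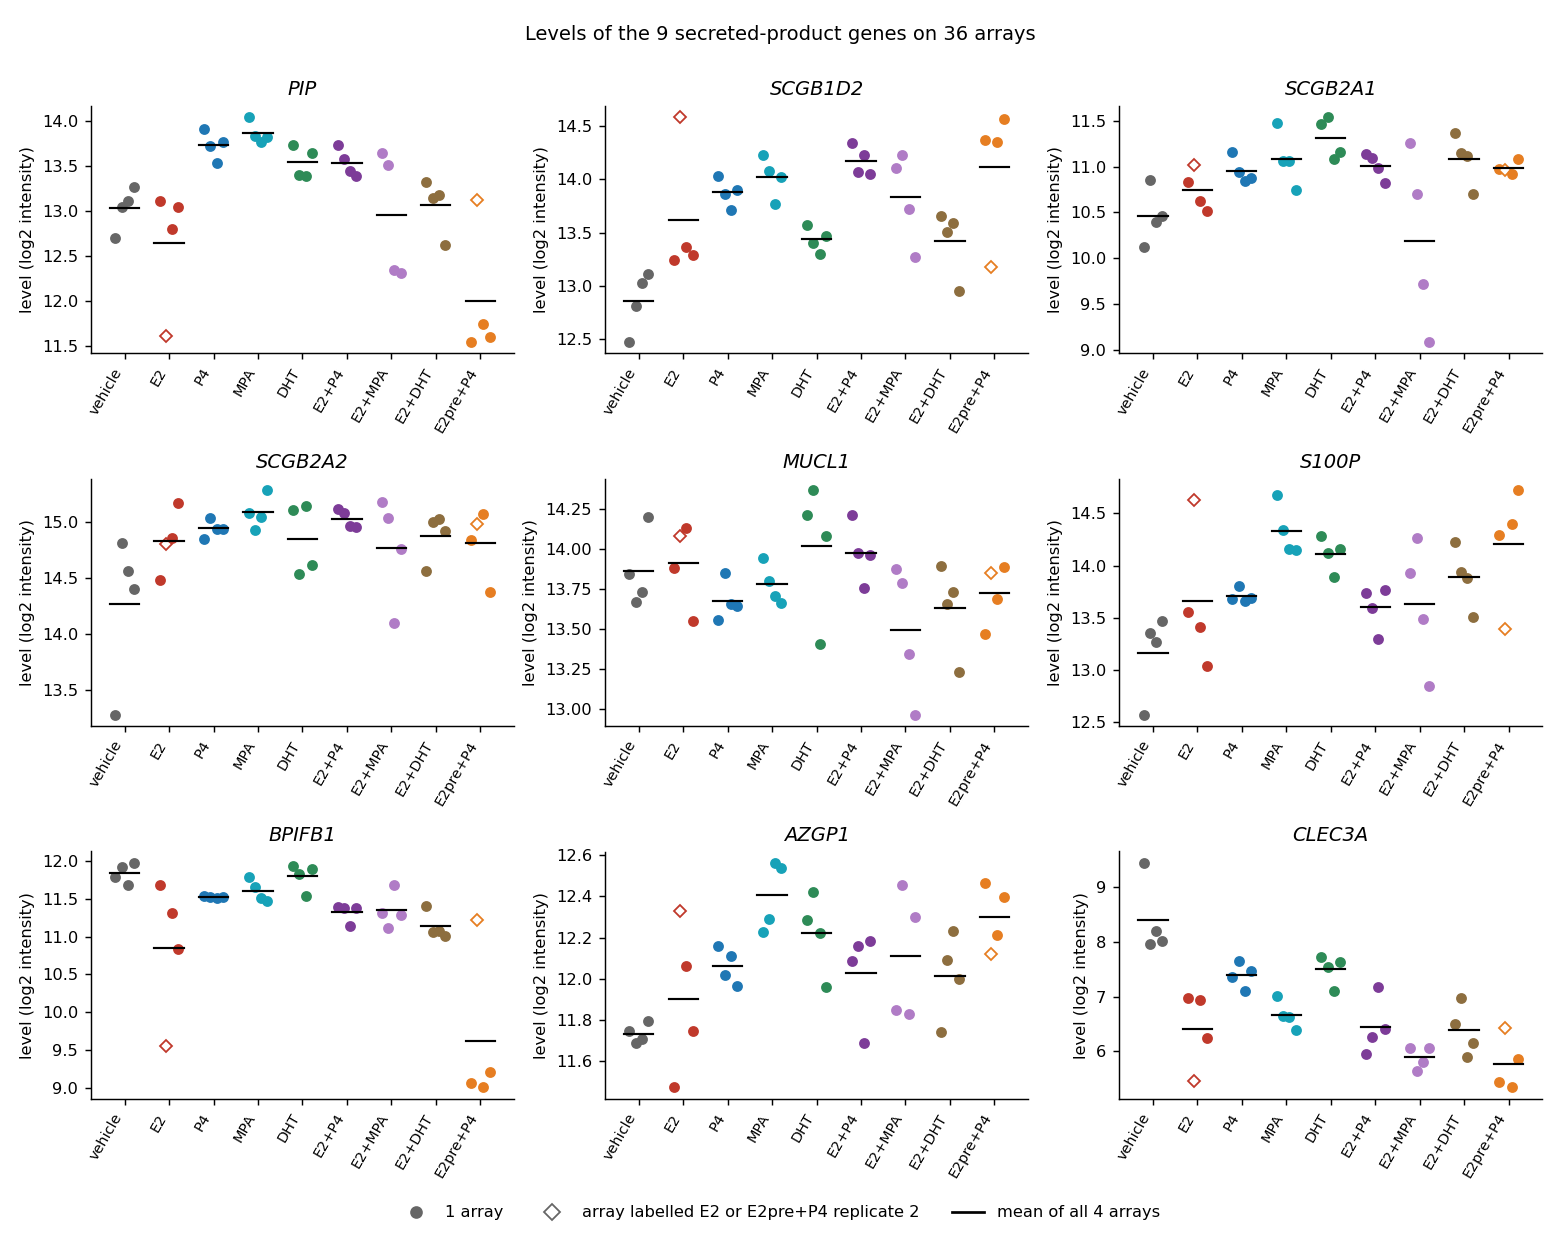
Level of each gene (log2 intensity, vertical axes, not starting at 0 and scaled for each gene) on every array by group, with the mean of all 4 arrays as a bar and the arrays labelled E2 or E2pre+P4 replicate 2 as open diamonds. SCGB1D2 is lowest with vehicle (12.48 to 13.11), BPIFB1 is near 9.1 on 3 arrays of the E2pre+P4 group, and E2+MPA replicates 3 and 4 are low for SCGB2A1 and PIP.

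The comparisons with vehicle asked which hormones change these genes on their own or together. Over 8 comparisons with vehicle, 16 changes were called at an adjusted p under 0.05 (limma, Benjamini-Hochberg over the 9902 genes), 8 higher and 8 lower. Without both doubtful arrays the number was 23, 12 higher and 11 lower. For PIP, BPIFB1, SCGB1D2 and S100P, which lay crossed on that pair, leaving it out by itself narrows the spread. It also enlarges their changes from vehicle in the E2pre+P4 group. Their smaller p-values without the pair are thus no further support. SCGB1D2, S100P and AZGP1 accounted for all calls upwards with the 36 arrays, and CLEC3A, BPIFB1 and PIP for all calls downwards. SCGB2A1, SCGB2A2 and MUCL1 were called in none of the 24 comparisons, with or without these arrays.

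E2 alone lowered 1 of the 9 genes, CLEC3A, and raised 0, where 1.37% of all genes tested were called (1.29% without both arrays). P4 alone changed 0 of 9 (0% of all genes), or 1, SCGB1D2, without both arrays (0.0808%). MPA raised 3 and lowered 1 (1.96% of genes called), or 4 and 1 without both arrays (2.35%). DHT changed 0 (2.4%), or raised 1, S100P, without both arrays (2.58%). With E2+P4, 1 gene rose and 1 fell (1.92%), or 1 and 2 (2.19%). With E2+MPA the numbers were 1 and 1 (3.87%), or 1 and 2 (4.27%), and with E2+DHT 0 and 1 (4.81%), or 1 and 2 (5.18%). In the E2pre+P4 group 3 genes rose and 3 fell (6.18%), and the numbers were the same without both arrays (5.5%). The median change of the 9 genes on the log2 scale was 0.67 with MPA, 0.53 with E2pre+P4, 0.52 with DHT, 0.50 with P4, 0.44 with E2+P4, 0.28 with E2+DHT, 0.17 with E2 and -0.08 with E2+MPA. In the E2+MPA group replicates 3 and 4 were the lowest arrays for several members, as given below. Over all genes tested the median was -0.12 with P4 and with MPA and between -0.07 and -0.01 in the other groups. The members were chosen with earlier results of these data known. Their counts beside the shares of all genes thus do not test whether they respond more often than other genes. The same holds for the lists of other genes below.

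Separation of a group's 4 arrays from the 4 vehicle arrays, which is stated for single genes below, was common among all genes tested. It held for 15.9% of them with P4, 11% with MPA, 5.63% with DHT, 3.15% with E2, 7.87% with E2+P4, 6.29% with E2+MPA, 8.36% with E2+DHT and 8.88% with E2pre+P4. No P4 array shared a set of 6 consecutive arrays with a vehicle array, and arrays of the same set deviated alike. When P4 arrays are set directly against vehicle arrays, P4 and the set thus cannot be told apart for any gene.

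SCGB1D2, the gene of lipophilin B, rose with MPA and with each progestin combined with E2. Its level was 12.48, 12.81, 13.03 and 13.11 on the vehicle arrays and 14.03, 13.86, 13.72 and 13.90 with P4. With MPA it was 14.23, 14.08, 13.77 and 14.02, and with E2+P4 14.34, 14.07, 14.23 and 14.05. All arrays of these groups lay above all vehicle arrays. The rise with MPA was 2.25-fold (log2 1.17 ± 0.26 SE, adjusted p = 0.0107, limma) and that with E2+P4 2.49-fold (1.31 ± 0.26, adjusted p = 0.00207). Both were called at the same size without the doubtful pair (adjusted p = 5.11e-05 and 3.99e-06, limma).

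For P4 alone the difference in SCGB1D2 was 2.03-fold (log2 1.02, 95% interval 0.50 to 1.55), which missed the threshold with all arrays (adjusted p = 0.103, limma) and passed it without both doubtful arrays (adjusted p = 0.00657). It did not pass when sets of 6 consecutive arrays were taken as a block besides. For P4 against vehicle 0 of 9902 genes were called with all arrays in limma, although 2608 had an unadjusted p under 0.05. The DHT arrays, at 13.57, 13.40, 13.30 and 13.47, also lay above all vehicle arrays, with a difference of 0.58 (0.06 to 1.10) that did not pass (adjusted p = 0.292, limma, and 0.0645 without both arrays). With E2+MPA the level was 14.10, 14.23, 13.72 and 13.27, a rise of 1.97-fold (adjusted p = 0.0249, limma, and 0.000281 without both arrays). For E2+DHT the difference was 0.57 (adjusted p = 0.195, limma). It was called higher without both arrays (adjusted p = 0.0454, limma), which was the only 1 of 12 alternatives to call it.

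In the E2pre+P4 group SCGB1D2 stood at 14.37, 14.34 and 14.56 on replicates 1, 3 and 4 and at 13.18 on the array labelled replicate 2. The rise over vehicle was 2.39-fold with all arrays (log2 1.26 ± 0.26 SE, adjusted p = 0.0021, limma) and 2.97-fold without both doubtful arrays (1.57 ± 0.18, adjusted p = 3.38e-07). With E2 alone it was at 13.24, 13.37 and 13.29, and at 14.58 on the array labelled replicate 2. The difference for E2 was 0.76 with all arrays (adjusted p = 0.193, limma) and 0.44 without the pair (adjusted p = 0.404). Without the first vehicle array the rises with E2+P4 and E2pre+P4 still passed (adjusted p = 0.0161 and 0.0154, limma), while those with MPA (1.04, adjusted p = 0.0724) and E2+MPA (0.85, adjusted p = 0.102) did not. That with E2+MPA was also lost without E2+MPA replicate 1 (0.88, adjusted p = 0.0562) or 2 (0.84, adjusted p = 0.0759). With all 3 of the first vehicle array and the doubtful pair left out, the changes with MPA and E2+MPA passed (adjusted p = 0.000513 and 0.00272, limma) and that with P4 did not (0.90, adjusted p = 0.0596).

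S100P was highest with MPA, DHT and E2pre+P4. The vehicle arrays read 12.57, 13.35, 13.27 and 13.47, and the MPA arrays 14.67, 14.34, 14.16 and 14.15. The DHT arrays read 14.28, 14.12, 13.89 and 14.16 and the P4 arrays 13.68, 13.80, 13.66 and 13.69. Neither the MPA nor the DHT nor the P4 arrays overlapped with vehicle. MPA raised S100P 2.24-fold (log2 1.17 ± 0.28 SE, adjusted p = 0.0218, limma, and 0.00185 without both doubtful arrays).

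For DHT the S100P difference was 0.95 (0.37 to 1.52), with an adjusted p of 0.0741 over all arrays and of 0.0125 without both doubtful arrays (limma). For P4 it was 0.55 (-0.03 to 1.12, adjusted p = 0.209, limma), and 0.35 without the first vehicle array. In the E2pre+P4 group replicates 1, 3 and 4 stood at 14.29, 14.39 and 14.73 and the array labelled replicate 2 at 13.40, for a rise of 2.05-fold with all arrays (adjusted p = 0.0233, limma) and 2.48-fold without the pair (adjusted p = 0.00041). Without the first vehicle array neither the change with MPA (0.97, adjusted p = 0.168, limma) nor that with E2pre+P4 (0.84, adjusted p = 0.146) passed. Both passed when all 3 of these arrays were left out (adjusted p = 0.0167 and 0.00296, limma), and that for DHT did not (0.75, adjusted p = 0.0883). The call with MPA was also lost without MPA replicate 1 (1.05, adjusted p = 0.0852) or 2 (1.16, adjusted p = 0.0518). That with E2pre+P4 was lost without replicate 1, 3 or 4 of that group (1.01, 0.97 and 0.86, adjusted p = 0.071, 0.0788 and 0.0675, limma).

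AZGP1, the cyst fluid glycoprotein, showed smaller rises over a narrow vehicle group. It stood at 11.75, 11.69, 11.71 and 11.79 with vehicle and at 12.23, 12.29, 12.56 and 12.54 with MPA, a rise of 1.59-fold (log2 0.67 ± 0.16 SE, adjusted p = 0.0197, limma, and 0.01 without both doubtful arrays). In the E2pre+P4 group it stood at 12.46, 12.12, 12.21 and 12.39, a rise of 1.48-fold (adjusted p = 0.0291, limma) or, without both doubtful arrays, of 1.54-fold (adjusted p = 0.016). All arrays of both groups lay above vehicle. The P4 arrays (11.97 to 12.16) and DHT arrays (11.96 to 12.42) also lay above vehicle, with differences of 0.33 (0.004 to 0.65, adjusted p = 0.187) and 0.49 (0.16 to 0.81, adjusted p = 0.113, limma) that did not pass. Neither call on AZGP1 passed when sets of 6 consecutive arrays in accession order were taken as a block (0.52, adjusted p = 0.212 with MPA, and 0.37, adjusted p = 0.231 with E2pre+P4) or without the first vehicle array (0.67 and 0.57, adjusted p = 0.0618 and 0.0783, limma). That with MPA was also lost without MPA replicate 3 (0.62, adjusted p = 0.0849) or 4 (0.63, adjusted p = 0.0668). That with E2pre+P4 was lost without replicate 1, 3 or 4 of that group or vehicle replicate 3, with adjusted p from 0.0564 to 0.107 (limma).

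PIP lay above vehicle with each single progestin and with DHT, and below it in the E2pre+P4 group. Vehicle arrays stood at 12.70, 13.04, 13.11 and 13.27. P4 arrays stood at 13.91, 13.72, 13.54 and 13.77, MPA arrays at 14.04, 13.84, 13.77 and 13.82, and DHT arrays at 13.73, 13.40, 13.39 and 13.65. All 12 of these lay above all vehicle arrays, but the differences of 0.70 (0.08 to 1.33), 0.84 (0.22 to 1.46) and 0.52 (-0.11 to 1.14) did not pass with all arrays (adjusted p = 0.158, 0.115 and 0.476, limma). Without both doubtful arrays that for MPA did (adjusted p = 0.0304), and it was lost again when the first vehicle array was also left out (0.73, adjusted p = 0.164).

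PIP was lower in the E2pre+P4 group than with vehicle. Replicates 1, 3 and 4 stood at 11.54, 11.74 and 11.59, below every vehicle array, and the array labelled replicate 2 at 13.12. PIP fell by 1.03 on the log2 scale with all arrays (0.49 of the vehicle level, adjusted p = 0.0387, limma) and by 1.40 without the pair (0.379 of the vehicle level, adjusted p = 0.000108). The call with all arrays was lost with cyclic loess normalisation, without a detection filter, with only the arrays of the groups compared, with the sets of 6 as a block (adjusted p = 0.07, 0.0578, 0.254 and 0.0727, limma). It was also lost without vehicle replicate 1, 3 or 4 (-1.14, -1.002 and -0.95, adjusted p = 0.0554, 0.0711 and 0.0814) and without E2pre+P4 replicate 1, 3 or 4 (-0.88, -0.94 and -0.89, adjusted p = 0.149, 0.121 and 0.0793, limma). With E2 alone PIP stood at 13.11, 12.80 and 13.04, and at 11.61 on the array labelled replicate 2, and the difference from vehicle was not called (-0.39, adjusted p = 0.715, limma, and -0.04 without the pair, adjusted p = 0.971).

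BPIFB1 showed the deepest fall of the genes detected on every array. Vehicle arrays stood at 11.79, 11.92, 11.68 and 11.98, and E2pre+P4 replicates 1, 3 and 4 at 9.06, 9.002 and 9.21, with the array labelled replicate 2 at 11.22. All 4 lay below the vehicle arrays. BPIFB1 fell by 2.22 on the log2 scale with all arrays (0.215 of the vehicle level, ± 0.33 SE, adjusted p = 3.67e-05, limma) and by 2.75 without the pair (0.149 of the vehicle level, ± 0.15, adjusted p = 4.44e-14).

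The other groups with E2 lay lower in BPIFB1 too, by less. With E2 alone the arrays stood at 11.69, 11.31 and 10.83, and at 9.54 on the array labelled replicate 2, and the difference of -0.996 (adjusted p = 0.191, limma) was -0.56 without the pair (adjusted p = 0.0715). E2+P4 arrays stood at 11.39, 11.37, 11.14 and 11.38, E2+MPA arrays at 11.32, 11.11, 11.69 and 11.28, and E2+DHT arrays at 11.41, 11.06, 11.07 and 11.002. The E2+P4 and E2+DHT arrays did not overlap with vehicle and 1 E2+MPA array did. With all arrays none of these passed (-0.52, -0.49 and -0.70, adjusted p = 0.448, 0.457 and 0.213, limma). Without both doubtful arrays all 3 did (adjusted p = 0.0499, 0.0437 and 0.00169), and the SE of BPIFB1 went from 0.33 to 0.14. When the first vehicle array was left out as well, the change with E2+DHT passed (adjusted p = 0.004) and those with E2+P4 and E2+MPA did not (adjusted p = 0.101 and 0.0754, limma). P4 arrays lay within 11.51 to 11.54, MPA arrays within 11.47 to 11.79 and DHT arrays within 11.54 to 11.94, and none of these single steroids was called.

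CLEC3A was lower than vehicle in all 8 treated groups, and this was called in 6. The vehicle arrays stood at 9.44, 7.96, 8.20 and 8.01, and the probe was detected on all 4. It was also detected on all 4 arrays with P4 (7.35, 7.66, 7.10 and 7.47) and with DHT (7.73, 7.55, 7.10 and 7.63), where the differences of -1.01 and -0.90 were not called (adjusted p = 0.118 and 0.153, limma, and 0.0968 and 0.0825 without the doubtful pair). Without the first vehicle array these differences were -0.66 (-1.28 to -0.04) and -0.56 (-1.18 to 0.06), with adjusted p of 0.584 and 0.67 (limma). With MPA (7.01, 6.64, 6.62 and 6.38) and E2+P4 (5.96, 6.27, 7.17 and 6.40) the probe was detected on 1 array of 4. With the undetected arrays of these groups raised to the lowest detected signal where they lay under it, the vehicle mean was 2.55-fold and 2.38-fold higher (adjusted p of the fitted change 0.00164 and 0.000158, limma), and 2.003-fold and 1.87-fold without the first vehicle array.

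In the E2, E2+MPA, E2+DHT and E2pre+P4 groups CLEC3A was detected on 0 of 4 arrays, so that only a bound can be given. It is the vehicle mean over the mean of, for each array, the higher of the lowest detected signal and the level of the probe itself. CLEC3A was at least 2.27-fold lower with E2 (adjusted p = 0.000108), at least 2.43-fold lower with E2+MPA (1.91e-06), at least 2.74-fold lower with E2+DHT (5.64e-05) and at least 2.46-fold lower with E2pre+P4 (9.65e-07, all limma). These adjusted p-values belong to the fitted changes, and the bounds themselves were not tested. Without the first vehicle array, the highest of that group, these bounds were 1.79, 1.91, 2.15 and 1.93, and all 6 changes still passed. Without the doubtful pair the bounds for E2 and E2pre+P4 were 2.41 and 2.33, and all 6 were called too. The 6 calls also held without background correction, on which the size of a fitted change near background depends, so that no fitted change is given for these groups.

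SCGB2A1, SCGB2A2 and MUCL1 had no call in any comparison. SCGB2A1 stood at 10.12 to 10.85 with vehicle and at 11.09 to 11.54 with DHT without overlap, a difference of 0.86 (0.32 to 1.40, adjusted p = 0.0878, limma). With E2+MPA its 4 arrays spread from 9.09 to 11.26 (SD 0.97, n = 4), with replicates 3 and 4 at 9.72 and 9.09. The same 2 arrays were the lowest of that group for PIP, SCGB1D2, SCGB2A2, S100P and MUCL1. SCGB2A2 stood at 13.28 to 14.81 with vehicle and at 14.93 to 15.29 with MPA, a difference of 0.82 (0.34 to 1.30, adjusted p = 0.061, limma). Without the first vehicle array this difference was 0.50 (0.08 to 0.91, adjusted p = 0.487, limma), and those of SCGB2A2 in the other 7 groups went from between 0.50 and 0.77 to between 0.18 and 0.44. For SCGB2A1 with DHT it was 0.75 (0.17 to 1.33, adjusted p = 0.342, limma). MUCL1 stood between 12.97 and 14.37 over all 36 arrays, and its differences from vehicle ran from -0.37 (E2+MPA, 95% interval -0.76 to 0.02) to 0.16 (DHT, -0.23 to 0.55).

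**Figure D3:**
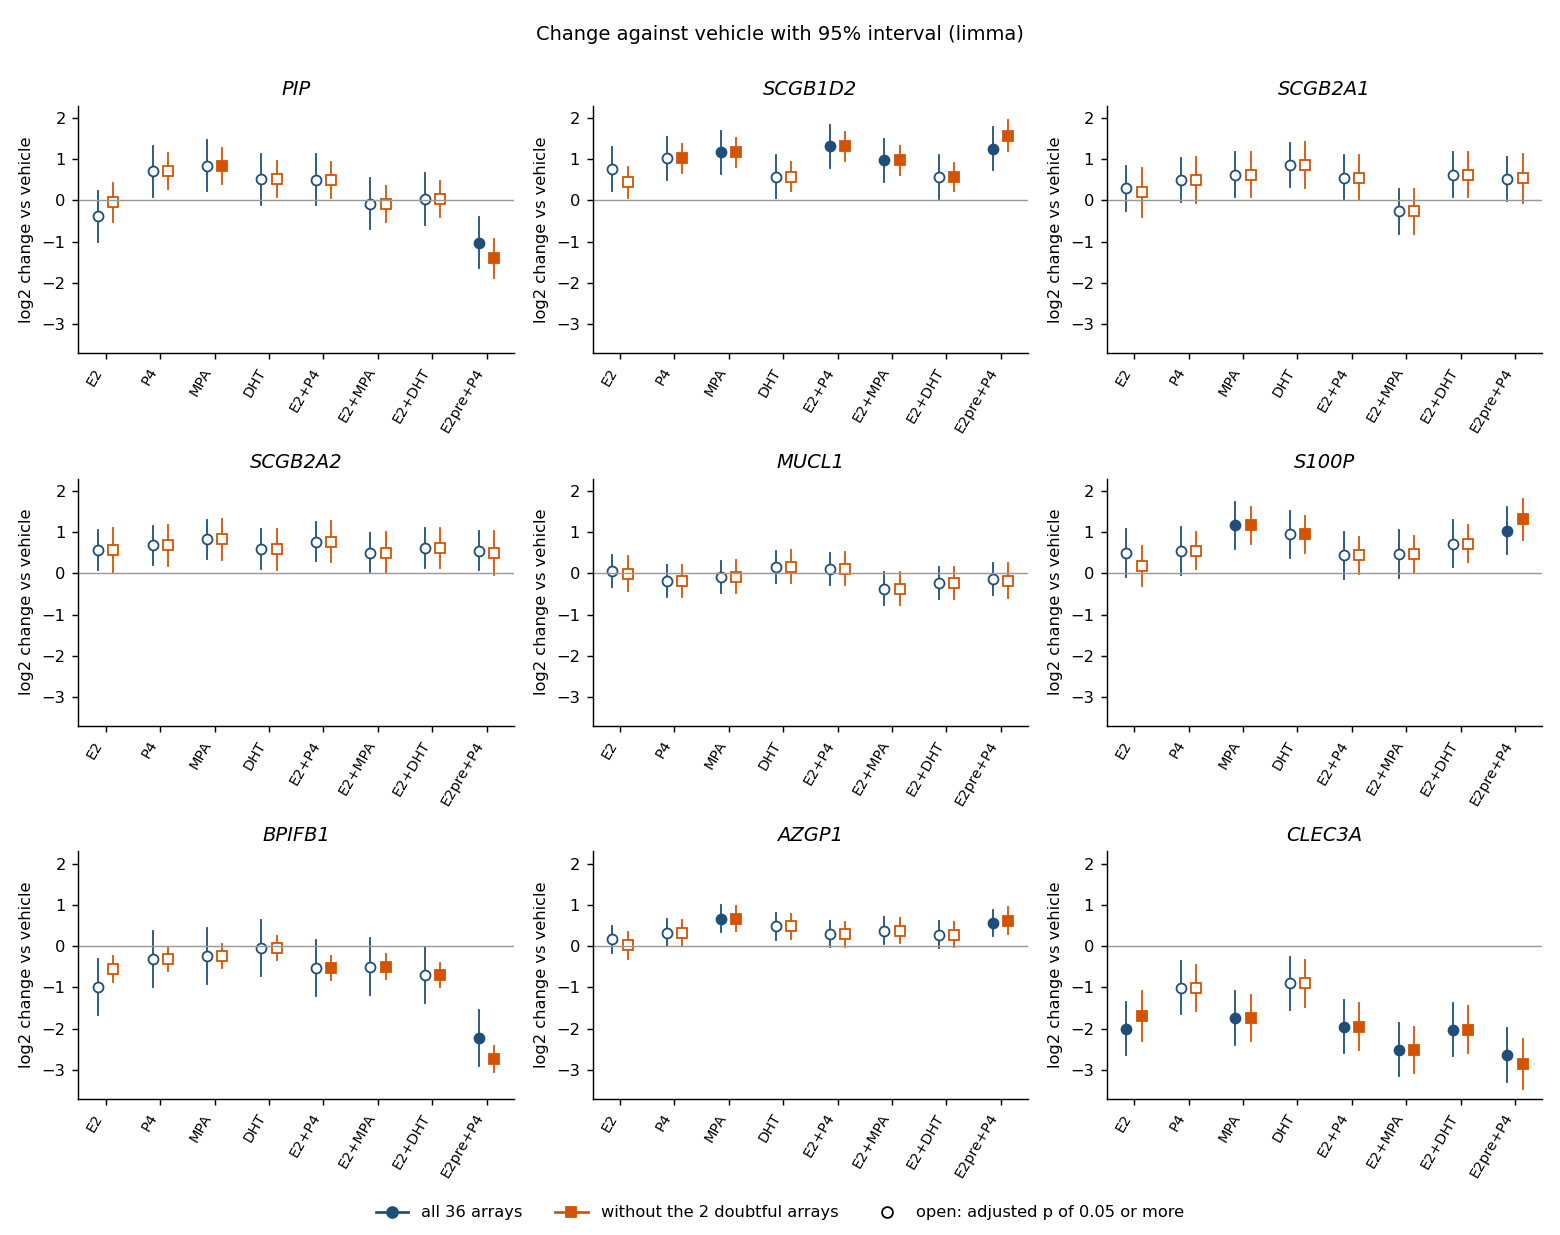
Change of each gene against vehicle (log2, vertical axes) with its 95% interval from limma in each of 8 treated groups, with all 36 arrays (circles) and without the arrays labelled E2 replicate 2 and E2pre+P4 replicate 2 (squares). Filled symbols passed an adjusted p of 0.05. CLEC3A, detected on 0 or 1 of 4 arrays outside vehicle, P4 and DHT, is below 0 throughout, SCGB1D2 is above 0 throughout, and PIP is above 0 with P4, MPA and DHT (0.70, 0.84 and 0.52) and at -1.03 with E2pre+P4.

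The E2pre+P4 group was set against E2+P4 to ask how the length of E2 exposure bears on the same P4 dose. With all arrays 0 of 9 genes were called, in a comparison where 0.0101% of all genes were called. Without both doubtful arrays 2 of 9 were called, PIP and BPIFB1, both lower (1.27% of all genes). PIP stood at 13.73, 13.58, 13.44 and 13.38 with E2+P4, above every E2pre+P4 array. PIP differed by -1.53 with all arrays (adjusted p = 0.0686, limma) and by -1.91 without the pair (± 0.23 SE, adjusted p = 1.86e-06). BPIFB1 differed by -1.70 (adjusted p = 0.0686) and by -2.23 without the pair (± 0.15, adjusted p = 1.93e-11, limma). As PIP and BPIFB1 lay crossed on the pair, leaving it out by itself enlarges these differences and narrows their spread. SCGB1D2 had a difference of -0.06 (-0.58 to 0.47) with all arrays and of 0.25 (-0.12 to 0.63) without the pair, and S100P one of 0.60 and of 0.87 (adjusted p = 0.0691, limma).

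The effect of a second hormone on cells given E2 for the same 16 h was read against E2 alone. Adding P4, MPA or DHT to E2 changed 0 of 9 genes in each case with all arrays, where 0%, 0.889% and 0.818% of all genes were called, and 0 of 9 without both arrays (0.0808%, 1.52% and 0.879%). For E2+P4 against E2, 0 of 9902 genes were called in limma with all arrays, and 92 had an unadjusted p under 0.05. SCGB1D2 differed most between E2+P4 and E2 once the pair was left out, by 0.87 (0.50 to 1.25, adjusted p = 0.0537, limma), with 3 E2 arrays at 13.24 to 13.37 and 4 E2+P4 arrays at 14.05 to 14.34.

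Adding E2 to P4, MPA or DHT also changed 0 of 9 genes with all arrays (1.28%, 1.15% and 1.15% of all genes called). Without the doubtful arrays, which belong to neither side of these comparisons but enter the shared estimate of spread, PIP was lower with E2+MPA than with MPA (-0.92, adjusted p = 0.0171, 1.5% of all genes called). BPIFB1 (-0.66, adjusted p = 0.00715) and CLEC3A (at least 1.46-fold, adjusted p of the fitted change 0.0272, limma) were lower with E2+DHT than with DHT (1.44%). For E2+P4 against P4, 0 of 9 genes were called (1.44%). With sets of 6 as a block besides, the difference of BPIFB1 passed (adjusted p = 0.00536), as did that between E2+MPA and MPA (-0.45, adjusted p = 0.0483), while those of PIP (-0.82, adjusted p = 0.114) and CLEC3A (adjusted p = 0.0832, limma) did not. The fall in PIP rests on E2+MPA replicates 3 and 4, at 12.34 and 12.30, while replicates 1 and 2 were at 13.65 and 13.51. Whether E2 altered the response to a steroid was tested as an interaction, and 0 of 9 genes were called for P4, MPA or DHT in either fit (0.0101%, 0% and 0% of all genes with all arrays, and 0%, 0.0202% and 0% without the pair). For these 3 interactions 362, 1449 and 463 of all genes had an unadjusted p under 0.05 with all arrays.

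P4, MPA and DHT are steroids that share the ring skeleton. MPA is a derivative of 17-hydroxyprogesterone with a methyl group and an acetate ester added, and DHT lacks the side chain of P4 and carries a hydroxyl group in its place. At the same dose and time, 3 pairs were compared without E2 and 3 with E2, and 0 of 9 genes were called in any of the 6 with all arrays. The shares of all genes called were 0.374% for MPA against P4, 1.42% for DHT against P4 and 0.303% for DHT against MPA, and 0.465%, 0.747% and 0.293% for the pairs with E2 in the same order. Without both doubtful arrays they were 0.555%, 1.7% and 0.394%, and 1.11%, 0.909% and 0.626%, and 1 gene was called.

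Several members had separate arrays between steroids without passing, as did 4.51% (MPA against P4), 8.01% (DHT against P4) and 4.54% (DHT against MPA) of all genes tested, passing or not. MPA exceeded P4 in S100P by 0.62 (0.04 to 1.197, adjusted p = 0.9999, limma), with all MPA arrays above all P4 arrays. AZGP1 was higher by 0.34 (0.02 to 0.67) in the same pair, and CLEC3A was detected on 4 of 4 arrays with P4 and on 1 of 4 with MPA. SCGB1D2 was lower with DHT than with MPA by 0.59 (0.07 to 1.11, adjusted p = 0.423) and than with P4 by 0.44 (-0.08 to 0.97, adjusted p = 0.386, limma). For PIP the difference of MPA from P4 was 0.14, with an interval from -0.49 to 0.76.

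With E2 present, SCGB1D2 was lower with E2+DHT (13.65, 13.51, 13.59 and 12.95) than with E2+P4 by 0.75 (0.22 to 1.27), without overlap, which 5.34% of all genes showed. It did not pass with all arrays (adjusted p = 0.374), passed without both doubtful arrays (0.0184), and did not pass when sets of 6 were taken as a block besides (-0.74, adjusted p = 0.0651, limma). It was the only member called in a steroid pair in either fit.

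**Figure D4:**
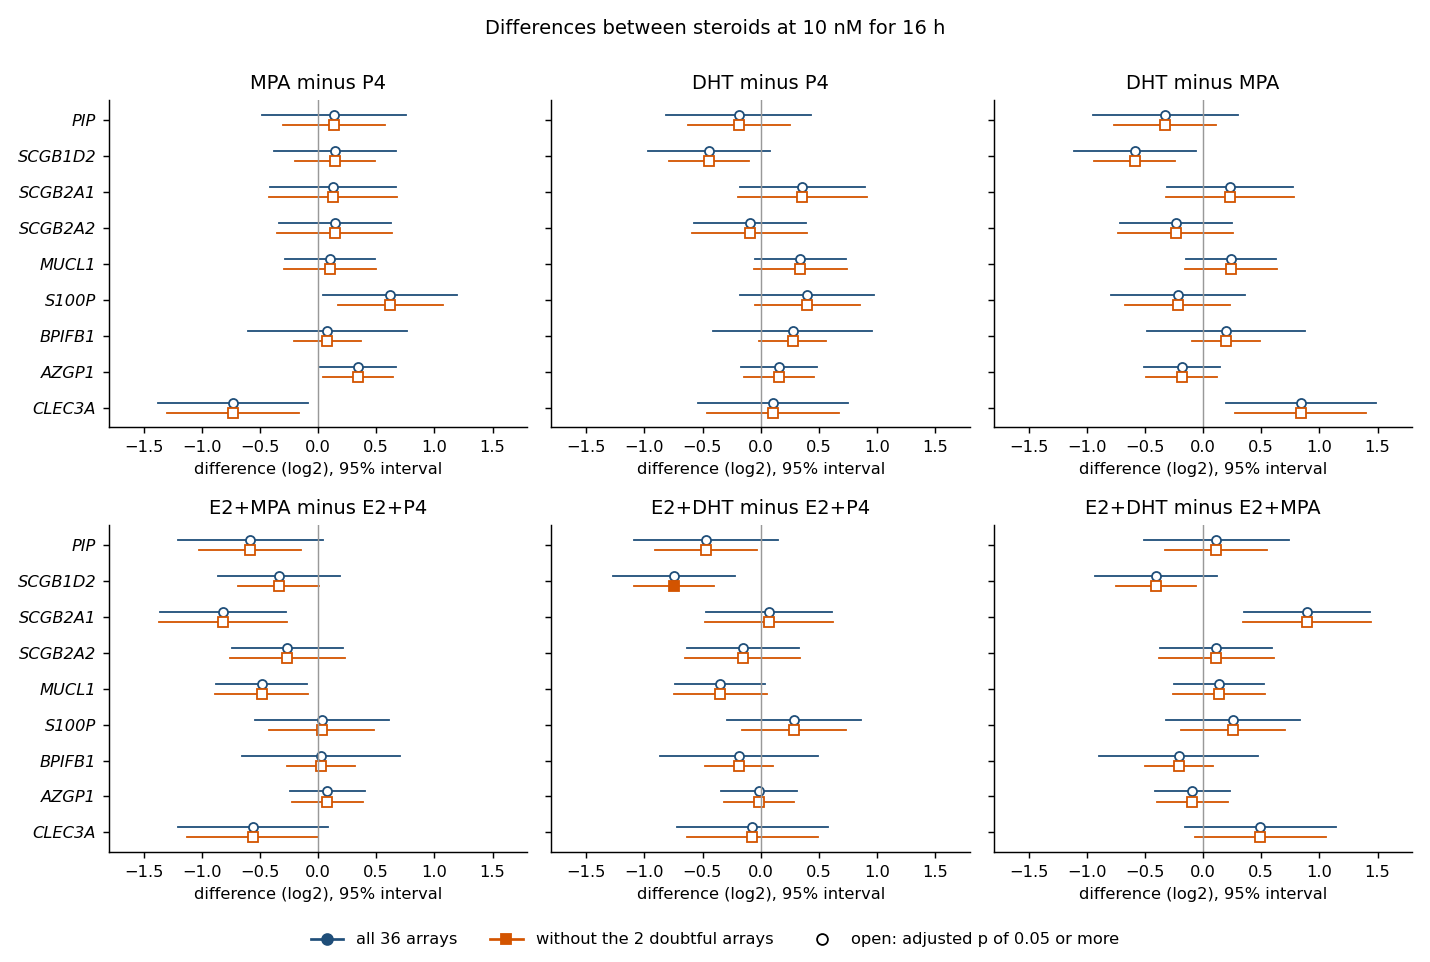
Difference between steroids in each gene (log2, horizontal axes) with its 95% interval from limma, for 3 pairs without E2 (upper row) and 3 with E2 (lower row), with all 36 arrays (circles) and without the arrays labelled E2 replicate 2 and E2pre+P4 replicate 2 (squares). SCGB1D2 in E2+DHT minus E2+P4 (-0.75, without both arrays) is the only filled symbol, which marks an adjusted p under 0.05.

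Relatives of these genes were also examined. Of 7 further secretoglobins 1 was detected often enough to be tested, and of 19 further S100 genes 10 were, and 0 of either list were called against vehicle in any group. Of 11 further genes of the bactericidal/permeability-increasing fold family 3 were tested, and LBP, which binds bacterial lipopolysaccharide, was called once. It was lower in the E2pre+P4 group (-0.64, adjusted p = 0.0315, limma, and -0.76, adjusted p = 0.0146 without both doubtful arrays). In that comparison 6.18% of all genes were called (5.5% without both arrays).

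Of 25 other secreted breast products 13 were tested. With E2 2 were higher (1.37% of all genes called), with E2+P4 2 (1.92%), with E2+MPA 1 (3.87%) and with E2+DHT 3 (4.81%), and 0 were lower in these groups. With P4, MPA and DHT 0 were called (0%, 1.96% and 2.4%), and with E2pre+P4 5 were higher and 1 lower (6.18%). Without the doubtful pair 1 was higher with P4 (0.0808%), 1 with MPA (2.35%), 3 with E2+P4 (2.19%) and 2 with E2+MPA (4.27%). With E2pre+P4 5 were then higher and 0 lower (5.5%), and the other counts were the same. SERPINA3 had the largest change, 4.39 with E2pre+P4 (adjusted p = 1.24e-06), and 5.19 without the pair (2.08e-15, limma). SERPINA3 was among the genes that marked the pair as doubtful. Its larger change without the pair follows from that choice and is no further support. TFF1, a trefoil peptide and a classic estrogen target, rose by 1.74 with E2 (adjusted p = 2.49e-05, and 0.000197 without the pair), and SLPI, a secreted inhibitor of leukocyte proteases, by 1.57 with E2pre+P4 (adjusted p = 0.00931, and 2.09, 2.76e-07 without the pair, limma).

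Among 16 apocrine enzymes and transporters 9 were tested. With DHT 3 were higher and 1 lower (2.4% of all genes called), and with E2+DHT likewise 3 and 1 (4.81%). With E2+MPA 3 were higher (3.87%). With E2, MPA and E2+P4 1 each was higher (1.37%, 1.96% and 1.92%), and with P4 0 (0%). With E2pre+P4 1 was higher and 3 were lower (6.18%). Without the doubtful pair 2 were higher with MPA (2.35%), and 1 higher and 2 lower with E2pre+P4 (5.5%), with the other counts the same. SERHL2, a serine hydrolase-like protein, rose by 1.21 with DHT (adjusted p = 3.53e-07) and fell by 0.81 with E2pre+P4 (adjusted p = 0.000188, limma), and both held without the pair (6.59e-07 and 0.000242). DHRS2, a short-chain dehydrogenase, rose by 1.70 with E2+DHT (adjusted p = 4.82e-07, and 2.72e-08 without the pair). CYP4Z1, a breast-rich cytochrome P450, was detected on 0 of 4 E2pre+P4 arrays. It was at least 1.62-fold lower there than with vehicle, or at least 1.54-fold without the pair (adjusted p of the fitted changes 0.00133 and 0.00229, limma).

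Among 13 hormone receptors and regulators 11 were tested. With E2 1 was higher (1.37% of all genes called), with E2+P4 1 (1.92%) and with E2pre+P4 1 (6.18%). With E2+DHT 1 was higher and 1 lower (4.81%), and with E2+MPA 2 were higher (3.87%). With P4, MPA and DHT 0 were called (0%, 1.96% and 2.4%). Without the doubtful pair 1 was higher with MPA (2.35%), and 2 were higher and 1 lower with E2pre+P4 (5.5%). PGR, the progesterone receptor gene, was detected on 0 of 4 vehicle arrays. It was at least 2.62-fold higher with E2 (adjusted p = 4.42e-06) and at least 1.79-fold higher with E2pre+P4 (0.000145), or at least 3.53-fold and 1.34-fold without the pair (9.04e-10 and 2.34e-05, limma). With E2+P4 and E2+DHT it was at least 2.21-fold and 2.31-fold higher (2.36e-05 and 8.46e-06, limma). STAT5A, a transcription factor of prolactin signalling, was detected on 0 of 4 vehicle arrays and at least 1.13-fold higher with E2+MPA (adjusted p = 0.0212, and 6.06e-05 without the pair, limma). The adjusted p-values beside the bounds of PGR and STAT5A belong to the fitted changes, and the bounds were not tested. GATA3, a transcription factor of luminal cells, fell by 0.45 with E2+DHT (adjusted p = 0.0272, and 0.0312 without the pair, limma).

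The members did not share 1 pattern over the 9 groups. Over the 9 group means S100P and AZGP1 followed each other most closely (Pearson r 0.93), followed by PIP and BPIFB1 (0.83) and SCGB1D2 and SCGB2A2 (0.81), whereas the mammaglobin pair had 0.59 and SCGB1D2 and CLEC3A ran opposite (-0.71). These values are descriptions over 9 means of the same arrays, so that shifts of 1 array enter every gene. Without the doubtful pair of arrays the first 3 were 0.95, 0.87 and 0.64.

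Among all genes tested, those most like each member over the 9 group means were KRT24 and BIVM for PIP (r 0.91 and 0.88), NFIL3 and FN3KRP for SCGB1D2 (0.93 and 0.92), and PDCD6 and NENF for SCGB2A1 (both 0.94). For SCGB2A2 they were TM2D3 and EXOC1 (0.98 and 0.97), for MUCL1 ALKBH7 and EXOSC7 (both 0.97), and for S100P AZGP1 and SAT1 (0.93 and 0.92). For BPIFB1 they were LRRC31 and SAP18 (0.96 and 0.95), for AZGP1 HS1BP3 and S100P (0.94 and 0.93), and for CLEC3A ARHGEF6 and YPEL2 (both 0.97). S100P and AZGP1 were the only members to be among each other's nearest genes. With the doubtful pair left out, the r of these same genes ran from 0.85 (NFIL3) to 0.98 (TM2D3), and the levels of CLEC3A behind its values were in part not above background.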

How the data were processed

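The deposited non-normalised file holds, per the file headers, probe signal intensity that the authors exported from BeadStudio on a linear scale, with a detection p-value column deposited as 1 minus the p-value. The second deposited file gives each array's signal after a linear rescaling with constants not given in the sources used here. The authors' ComBat batch correction was not applied, as the chip of each array is not given either. Their variance stabilisation was not run, as the package for it was not available. The submitters' processing notes name limma.

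Here background was corrected by normexp from the detection p-values (offset 16), followed by quantile normalisation and log2 (neqc, limma 3.58.1, R 4.3.3, with the data.table package, version 1.17.8). Probes were kept if detected (p under 0.01) on 4 or more arrays, and the brightest stood for its gene. A model with 9 group means was fitted to 9902 genes over 36 arrays, and 24 contrasts were tested by lmFit and eBayes with Benjamini-Hochberg adjustment over all genes within each. The scripts were tested on simulated data. The number of arrays (4 per group) and signal over background limit the precision. Symbols came from the platform annotation, updated through RefSeq gene IDs (27578 of 48803 probes with 1 symbol, 13 with several and 21212 with none). Figures were drawn with matplotlib 3.10.9.

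The members and lists were chosen with earlier results of these data known. Genes named are the 9 members, the 2 most alike each over the 9 group means, up to 3 called genes with the largest change from each list, and SERPINA3, FKBP5 and PDZK1. Replicate numbers did not pair the samples: deviations of same-numbered arrays had a median correlation of 0.044 (lowest -0.87). Arrays of different groups in the same set of 6 consecutive accessions had a median of 0.256, against -0.0568 in different sets, so that p-values were also computed with these sets as a block. Alternatives covered normalisation, background, filters, probes, the rescaled values, the arrays fitted, blocks, and each array left out. Leaving out the doubtful pair with the first vehicle array, or with sets of 6 as a block, was added after seeing the data.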

Additional observations from a re-analysis of the deposited data

Results flagged for a closer look

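In groups of 4 arrays, 81 combinations of gene and group were examined for an array far from the other 3, and 6 stood out, where chance gives about 1 in 20. Of these, 4 fell on the arrays labelled E2 replicate 2 and E2pre+P4 replicate 2. PIP stood at 13.12 on the array labelled E2pre+P4 replicate 2, against 11.54 to 11.74 on the others of its group. BPIFB1 stood at 11.22 on the same array, against 9.002 to 9.21. SCGB1D2 stood at 13.18 on that array, against 14.34 to 14.56, and at 14.58 on the array labelled E2 replicate 2, against 13.24 to 13.37. CLEC3A stood at 9.44 on vehicle replicate 1, against 7.96 to 8.20. BPIFB1 stood at 11.14 on E2+P4 replicate 3, against 11.37 to 11.39, a gap of small size in a narrow group.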

How the results depend on the processing

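None of the 16 calls against vehicle, nor the further 13 changes called without the doubtful pair, turned direction under 12 alternatives or without any 1 of 36 arrays. Of the 16 calls, 5 passed under all 12 alternatives and 4 of these also without any 1 array, namely SCGB1D2 with E2+P4 and CLEC3A with E2+MPA, E2+DHT and E2pre+P4. The 16 calls against vehicle became 5 when only the arrays of the groups compared were fitted, with fewer arrays to estimate the spread, and ranged from 9 to 23 with 1 array left out, 9 without vehicle replicate 1 and 23 without vehicle replicate 2. The other counts were 0 and rose as follows. E2 added to a hormone gave 3 without the doubtful pair, 2 with the sets of 6 as a block besides, and 4 without the first vehicle array besides. E2pre+P4 against E2+P4 gave 2, 2 and 3 under the same settings, and the steroid pairs with E2 gave 1 without the pair and 1 without the first vehicle array besides. A hormone added to E2 gave 1 in that last setting. With 1 array left out these counts ran from 0 to 2 (E2 added), 0 to 1 (hormone added to E2), 0 to 2 (E2pre+P4 against E2+P4) and 0 to 2 (steroid pairs with E2), the highest being without E2+MPA replicate 1 except for E2pre+P4 against E2+P4, where they were without either array of the doubtful pair, and were 0 for interactions and pairs without E2. With the replicate number as a block, 17 changes against vehicle were called in place of 16, and 1 for E2 added to a hormone in place of 0, and no other count moved. The cause of these shifts was not tested. CLEC3A is limited by signal near background and SCGB2A2 by signal near the top of the scale.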
